A study of Anguilla anguilla with 11 samples.

Results

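The matrix metalloproteinases, the ADAMTS proteases and the tissue inhibitors of metalloproteinases of the rete mirabile of the European eel (Anguilla anguilla) are described. Members were the transcripts whose name in the deposited table begins with mmp, ats or timp followed by digits, or whose description names a matrix metalloproteinase, a metalloproteinase inhibitor or thrombospondin motifs, which gave 85 of 45974 predicted transcripts. They comprised 37 metalloproteinases, 43 ADAMTS proteases (written ats in the table), 4 inhibitors (timp2 in 2 transcripts, timp3 and timp4) and mmp37, a protein of mitochondria that carries the letters only and was kept outside the 3 classes. The rete mirabile is the dense bundle of parallel capillaries behind the gas gland of the swimbladder. Yellow eels (5 animals, the resident freshwater stage) were compared with silver eels (6 animals, the stage prepared for the spawning migration). By the methods all were females, caught in Lake Constance by fishermen and kept in freshwater, and the vessels were rinsed with heparinized saline to remove blood cells before the tissue was taken. One polyA-selected library was made per eel, and the titles of the libraries carry 2 prefixes, FG1835 (yellow eels 1 to 3, silver eels 1 to 3) and FG1907 (yellow eels 4 and 5, silver eels 4 to 6), here called library sets.

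Metalloproteinases cut collagens, gelatins, proteoglycans and basement membrane proteins outside the cell, some of them anchored in the membrane. ADAMTS proteases cut mainly proteoglycans such as versican and aggrecan, trim the ends of new collagen molecules or act on the microfibrils of the matrix. The tissue inhibitors block the active site of metalloproteinases. In blood vessels the balance of proteases and inhibitors is known for its part in capillary growth and in the upkeep of the basement membrane. The roles given below are those known from mammals.

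Total counts per library were 9360429 to 12438185 (median 10555968). Levels are given as relative expression values, that is counts divided by a size factor of the library (the median of its ratios to a mean library), and a mean above 50 was taken as the limit of clear expression. Counts are not scaled to transcript length, so values are compared between eels and not between genes. Endothelial markers were present in every library, with summed values of 50197 to 73438 in 10 eels and 35050.4 in silver eel 5, while both transcripts of esam, an endothelial adhesion molecule, were near 0 (means 0.153 and 1.40). Markers of smooth muscle (summed values 36714 to 94812) and of epithelium (18155 to 25936) were present in every library as well, but not all of them. The epithelial sum came from the keratins k1c18 and k2c8, while epcam (g7485) was near 0 (mean 3.23). Of the smooth muscle markers, smtn (g41416) had a mean of 44.1, and the highest copy of desm, desm (g18044), had 39.3. Silver eel 5 also had the highest sum of fibroblast markers, 47934 against 13839.5 to 30588 in the other eels, and on the second principal component of all transcripts it lay at -126.58, the other eels at -4.71 to 37.3. The first component (46.8% of the variance) separated the library sets. Date, run and handling of the library sets cannot be told apart, and each set holds both stages.

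Counts were found for 79 of the 85 members, for 47 of them in every eel, and 20 had fewer than 10 counts in all. The 6 transcripts without a count were 2 of ats18, 2 of ats19, 1 of ats9 and 1 of mmp2, for which a count of 0 allows up to 3 counts over all libraries together. A mean above 50 was reached by 28 members, of which 12 were metalloproteinases of 8 names, 11 were ADAMTS proteases of 8 names, 4 were inhibitors and 1 was mmp37. The filter on low counts was passed by 43 members (17 metalloproteinases, 21 ADAMTS proteases, 4 inhibitors and mmp37), and tests refer to these. Several names are carried by more than 1 transcript, among them mmp14 (6), ats3 (6), mmp16 (5) and timp2 (2), and the reads of such copies may be divided between them, so that the level of a single copy is uncertain.

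The first question was whether inhibitors and proteases differ between the stages. In edgeR's quasi-likelihood test (silver against yellow) 0 of the 43 members and 0 of all 23981 transcripts tested passed an adjusted p of 0.05 (0.0% of the background), and DESeq2 called 0 members and 25 transcripts (0.0851%). At an unadjusted p under 0.05 there were 6 members, while 2.15% of all transcripts fell under it, and 2 members were under 0.01, where the background was 0.413%. Of the 6, 4 were lower in silver eels (background 1.11%), and these were the proteases ats17 (g973), mmp11 (g4963), mmp23 (g18928) and mmp13 (g8689). The 2 that were higher (background 1.03%) were the inhibitor timp3 (g19966) and the protease mmp9 (g12711). No member had all silver eels below or all above the yellow eels (background 0.125% and 0.113%). A fit that also held the library set put 7 members under an unadjusted p of 0.05 (background 4.06%), and 9 when silver eel 5 was also left out (background 6.26%). These p-values are set against the spread between these eels. In the fits without the library set this spread includes the difference between the sets. In bulk tissue fewer cells of a type and less RNA per cell cannot be told apart.

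**Figure D1:**
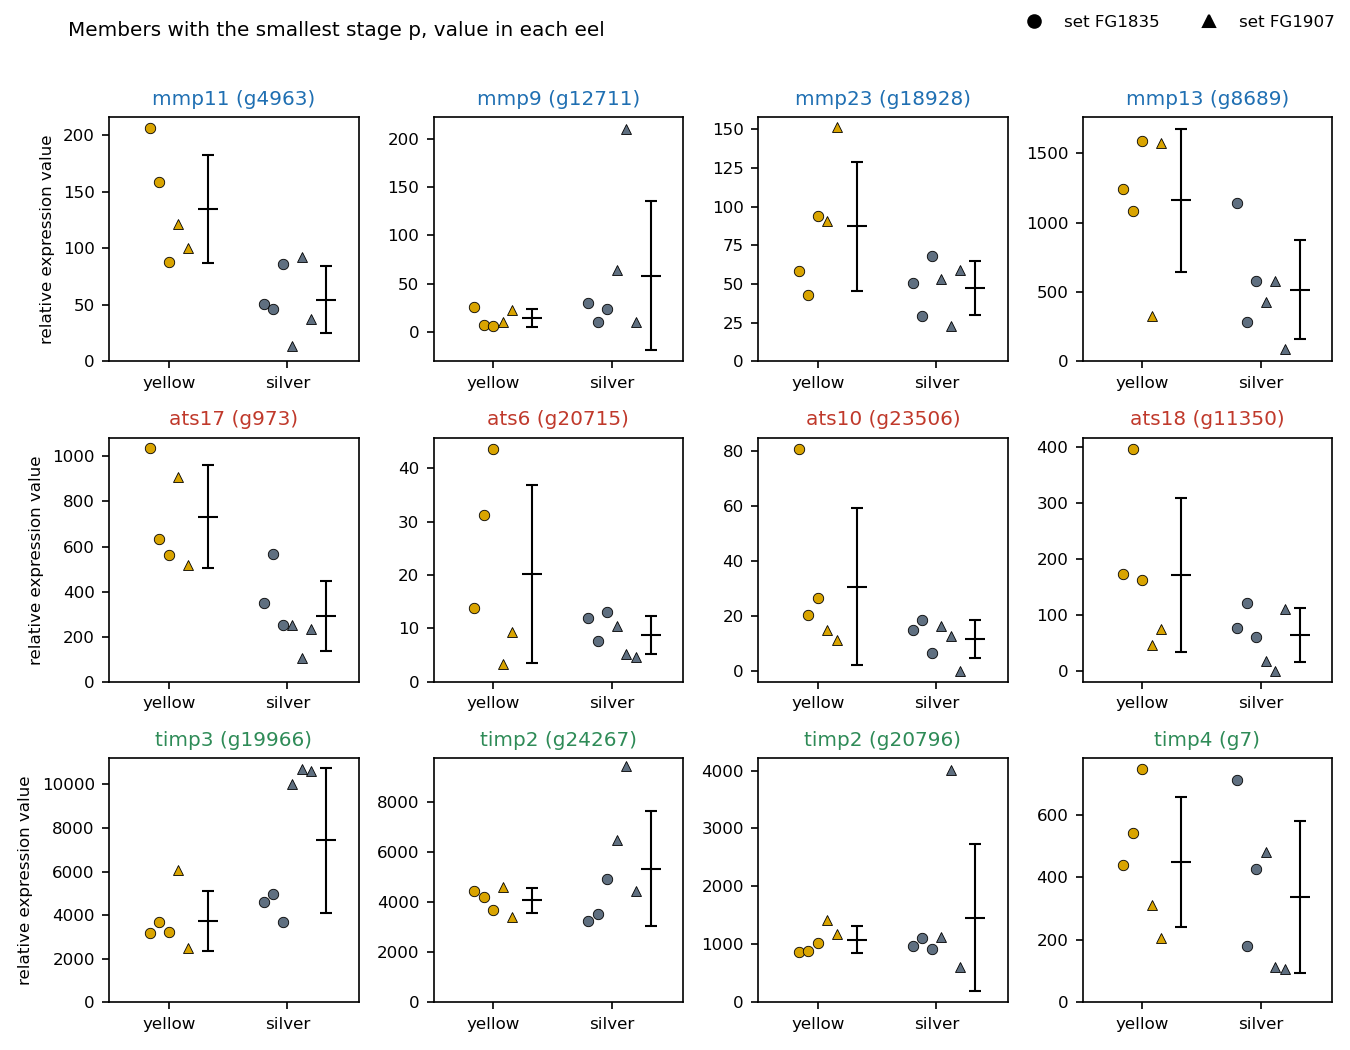
Relative expression value (vertical axis, counts over size factor) of the 4 metalloproteinases, 4 ADAMTS proteases and 4 inhibitors with the smallest stage p, 1 point per eel (circles FG1835, triangles FG1907), with mean and SD of the stage beside the points. For timp3 all 6 silver eels lie above the yellow median, and in mmp9 and timp2 (g20796) silver eel 5 stands far above the other silver eels.

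Timp3 is the inhibitor that binds to the matrix and also blocks several ADAMTS proteases. Its relative expression value was 3200.4, 3682, 3236, 6076 and 2489.9 in yellow eels 1 to 5, and in the silver eels the lowest, median and highest values were 3686, 7497 and 10721. The 3 silver eels of set FG1907 were above the highest yellow eel, and the groups overlapped. The mean was 3737 ± 1376 (SD, n = 5) in yellow and 7435 ± 3328 (SD, n = 6) in silver eels, a log2 difference of 0.99 with a standard error of 0.34. Its unadjusted p was 0.013 and its adjusted p was 1.00 by edgeR. The log2 difference was 0.78 in the fit with the library set (unadjusted p = 0.0086). Within FG1835 the 3 silver eels were all above the 3 yellow eels, the lowest of them narrowly, with 3686 against 3682 (log2 difference 0.38), and within FG1907 the log2 difference was 1.31.

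For the remaining inhibitors the unadjusted p was 0.19 or above. Timp2 inhibits mmp2 and, bound to mmp14 on the cell surface, also takes part in its activation. In timp2 (g24267) the yellow eels had 4451, 4194, 3664, 4604 and 3407, and the silver eels reached from 3248 over a median of 4666 to 9398, with a log2 difference of 0.39 (standard error 0.28). For timp2 (g20796) the yellow values were 857, 877, 1021, 1416 and 1174, and the silver values had a minimum of 601, a median of 1029.5 and a maximum of 4019. That maximum was silver eel 5, and the log2 difference of 0.45 became -0.21 without it. Timp4, an inhibitor of narrower tissue distribution, had 439, 541, 748, 312 and 207 in the yellow eels and from 106 over 303 to 713 in the silver eels, with a log2 difference of -0.43 (standard error 0.50). In all 3 of these transcripts the stages overlapped.

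Among the ADAMTS proteases ats17 (g973), an enzyme of connective tissue, had the smallest p. Yellow eels 1 to 5 had values of 1035, 636, 565, 909 and 517, and silver eels had a lowest value of 105, a median of 253 and a highest value of 566. All silver eels but silver eel 2 were below every yellow eel. The log2 difference was -1.33 with a standard error of 0.35 (edgeR, unadjusted p = 0.0020, adjusted p = 1.00). It was -0.96 within FG1835 and -1.84 within FG1907, and -1.16 without silver eel 5. In DESeq2 with the library set in the model, a fit added after seeing the data, it was the single member that passed (adjusted p = 0.036), where 0.209% of all transcripts passed. The smallest adjusted p of any ADAMTS protease was 0.61 in edgeR with the library set and 0.25 in DESeq2 without it. The second transcript named ats17, ats17 (g2680), did not share the pattern of ats17 (g973), with a log2 difference of -0.12 (standard error 0.44).

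Lower values without a call were also seen for ats18 (g11350), ats10 (g23506) and ats6 (g20715), the last 2 of which encode proteases that act on microfibrils. The log2 differences were -1.41 (standard error 0.75), -1.43 (standard error 0.69) and -1.20 (standard error 0.57), with unadjusted p of 0.083, 0.059 and 0.056 in edgeR. In ats18 (g11350) yellow eels had 173, 397, 164, 47.5 and 76.0, and silver eels had 1.04 to 122 with a median of 69.2, and without yellow eel 2 the log2 difference was -0.84 (unadjusted p = 0.29). The value of ats10 (g23506) was 80.5 in yellow eel 1 and 11.1 to 26.4 in the other yellow eels, and without yellow eel 1 the log2 difference was -0.67. For ats6 (g20715) the silver eels lay between 4.70 and 13.1 and the yellow eels between 3.39 and 43.6, so that the silver range fell inside the yellow one. The procollagen processing enzymes ats2 and ats3 had log2 differences between -0.63 and 0.75.

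None of the other ADAMTS proteases above 50 was under an unadjusted p of 0.05 with all eels. Ats1 (g11275), which cuts versican and aggrecan, had a mean of 2146 ± 1133 over all eels (SD, n = 11) and a log2 difference of -0.24 (standard error 0.47), which was -0.78 within FG1835 and 0.75 within FG1907. Ats9 (g3068), a protease of the same substrates, had a mean of 116 ± 58.8 and a log2 difference of 0.09 (standard error 0.51). Ats3 (g13812) had a mean of 159 ± 37.6 and a log2 difference of 0.13 (standard error 0.25), ats3 (g5009) had -0.63 (standard error 0.54, and -0.01 without yellow eel 2) and ats3 (g15542) had -0.21 (standard error 0.52).

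Silver eel 5 bore on ats15 (g4839) and ats8 (g11137), which cut versican and aggrecan. The log2 difference of ats15 (g4839) was 0.95 (standard error 0.75) with all eels and -0.44 without silver eel 5. For ats8 (g11137) it was -0.28 (standard error 0.73) with all eels and -1.31 without silver eel 5, with an unadjusted p of 0.041 in edgeR. Ats7 (g6005), which differed mainly between the library sets, had a log2 difference of -0.63 (standard error 0.74) between the stages, which was -0.27 without yellow eel 3.

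Of the metalloproteinases, mmp11 (g4963), stromelysin-3, had the smallest p. It had 206, 158, 88.2, 121 and 100.2 in the yellow eels, and 13.9, 48.8 and 91.8 as lowest, median and highest values of the silver eels. All silver eels but silver eel 5 were below the lowest yellow eel. The log2 difference was -1.30 with a standard error of 0.42 (edgeR, unadjusted p = 0.0090). It was similar within FG1835 (-1.30) and within FG1907 (-1.16).

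Mmp13 (g8689), collagenase-3, cuts fibrillar collagens. Its yellow values were 1240.3, 1081, 1591, 325 and 1570.0, and the silver eels reached from 89.3 over a median of 502 to 1142, so that the stages overlapped in yellow eels 2 and 4. The log2 difference was -1.18 with a standard error of 0.53 (edgeR, unadjusted p = 0.043). Mmp23 (g18928), a membrane-bound member, had 58.6, 43.0, 93.6, 90.5 and 151 in yellow eels and 22.9, 52.1 and 68.1 as lowest, median and highest silver values. Its log2 difference was -0.89 (standard error 0.38, unadjusted p = 0.036), while the second transcript mmp23 (g3326) had 1.02 (standard error 0.52), and with both summed the log2 difference was -0.28.

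Mmp9 (g12711), gelatinase B, which is released by leukocytes among other cells, had a mean below the limit of 50. The yellow eels had 26.0, 6.74, 6.36, 10.2 and 22.3, and the silver eels 9.75, 26.9 and 211 as lowest, median and highest values. In 3 silver eels it was above the highest yellow eel, and the stages overlapped. The log2 difference of 2.01 (standard error 0.81, unadjusted p = 0.027) was 0.91 without silver eel 5 (unadjusted p = 0.16). In silver eel 5 the summed leukocyte markers were 5057, against 1428 to 4524 in the other eels. The summed red blood cell markers were 595 in silver eel 5, against 52.0 to 955 in the other eels. The part of these markers in its mmp9 value was not tested.

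Mmp19 (g20203), an enzyme that cuts basement membrane proteins, was similar in its spread. It had 529, 309, 126, 132 and 144 in the yellow eels, and 94.9, 443 and 2131 as lowest, median and highest values of the silver eels. The highest value belonged to silver eel 4, and the log2 difference of 1.36 (standard error 0.70) became 0.50 without it.

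Mmp14 is a membrane-type protease that works at the cell surface. Its copy mmp14 (g28696) had 1741, 1599.9, 1908, 1359 and 1296 in yellow eels and 1077, 1479.7 and 2484 as lowest, median and highest silver values, with a log2 difference of 0.01 (standard error 0.23). The copies mmp14 (g26752), mmp14 (g30480), mmp14 (g30769) and mmp14 (g35798) had log2 differences of -0.15, -0.14, 0.27 and -0.14. Mmp24 (g9378), another membrane-type protease, had -0.67 (standard error 0.47), which was -0.01 without yellow eel 2, whose value was 212. Mmp28 (g21081), a secreted protease known as epilysin, had -0.49 (standard error 0.39), and mmp37 (g5) had -0.08 (standard error 0.33).

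Other genes of the pathway were read from the same edgeR fit, in which 2.15% of all transcripts were under an unadjusted p of 0.05 (1.11% lower and 1.03% higher). Other inhibitors and clearance receptors had 2 of 29 transcripts under an unadjusted p of 0.05, both lower in silver eels, alpha-2-macroglobulin a2mg (g3378), a protease trap of plasma, with a log2 difference of -0.89, and wfdc1 (g13657), with -1.35. Activators and inducers such as furin, which removes the propeptide of membrane-type metalloproteinases, had 0 of 12, and the 2 of smallest p were basi (g39674) with 0.59 and furin (g25622) with -0.48. Sheddases and related metzincins had 3 of 28, of which 2 were higher, ada15 (g20506), a disintegrin of vascular cells, with 1.09 and ada19 (g6450) with 0.60, and 1 was lower, bmp1 (g9669), which removes the C-terminal propeptide of procollagen, with -1.01. For the ADAMTS-like proteins, which lack the protease domain, it was 1 of 3, atl1 (g7807) with -2.06, while atl5 (g3805) had 0.26. For the substrates it was 2 of 62, nid1 (g7076), a linker of the basement membrane, with -0.88 and the copy vwf (g45479) of von Willebrand factor with 0.96. None of these passed the adjusted p of 0.05. The sign differed between the library sets for atl1 (g7807), with -3.28 within FG1835 and 0.37 within FG1907, and for atl5 (g3805), with -0.27 and 0.99. The yellow mean of atl1 (g7807) was 164 ± 218 (SD, n = 5). Bmp1 (g9669) had -0.21 within FG1835 and -2.33 within FG1907. The other genes named here kept their sign where both sets gave a value.

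Taken by class, the median log2 difference between the stages was -0.14 for the metalloproteinases (7 higher and 10 lower in silver eels), -0.24 for the ADAMTS proteases (5 higher and 16 lower) and 0.42 for the inhibitors (3 higher and 1 lower). Over all transcripts tested the median was 0.005, with 50.8% higher. Without silver eel 5 these medians were -0.27, -0.46 and -0.03.

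**Figure D2:**
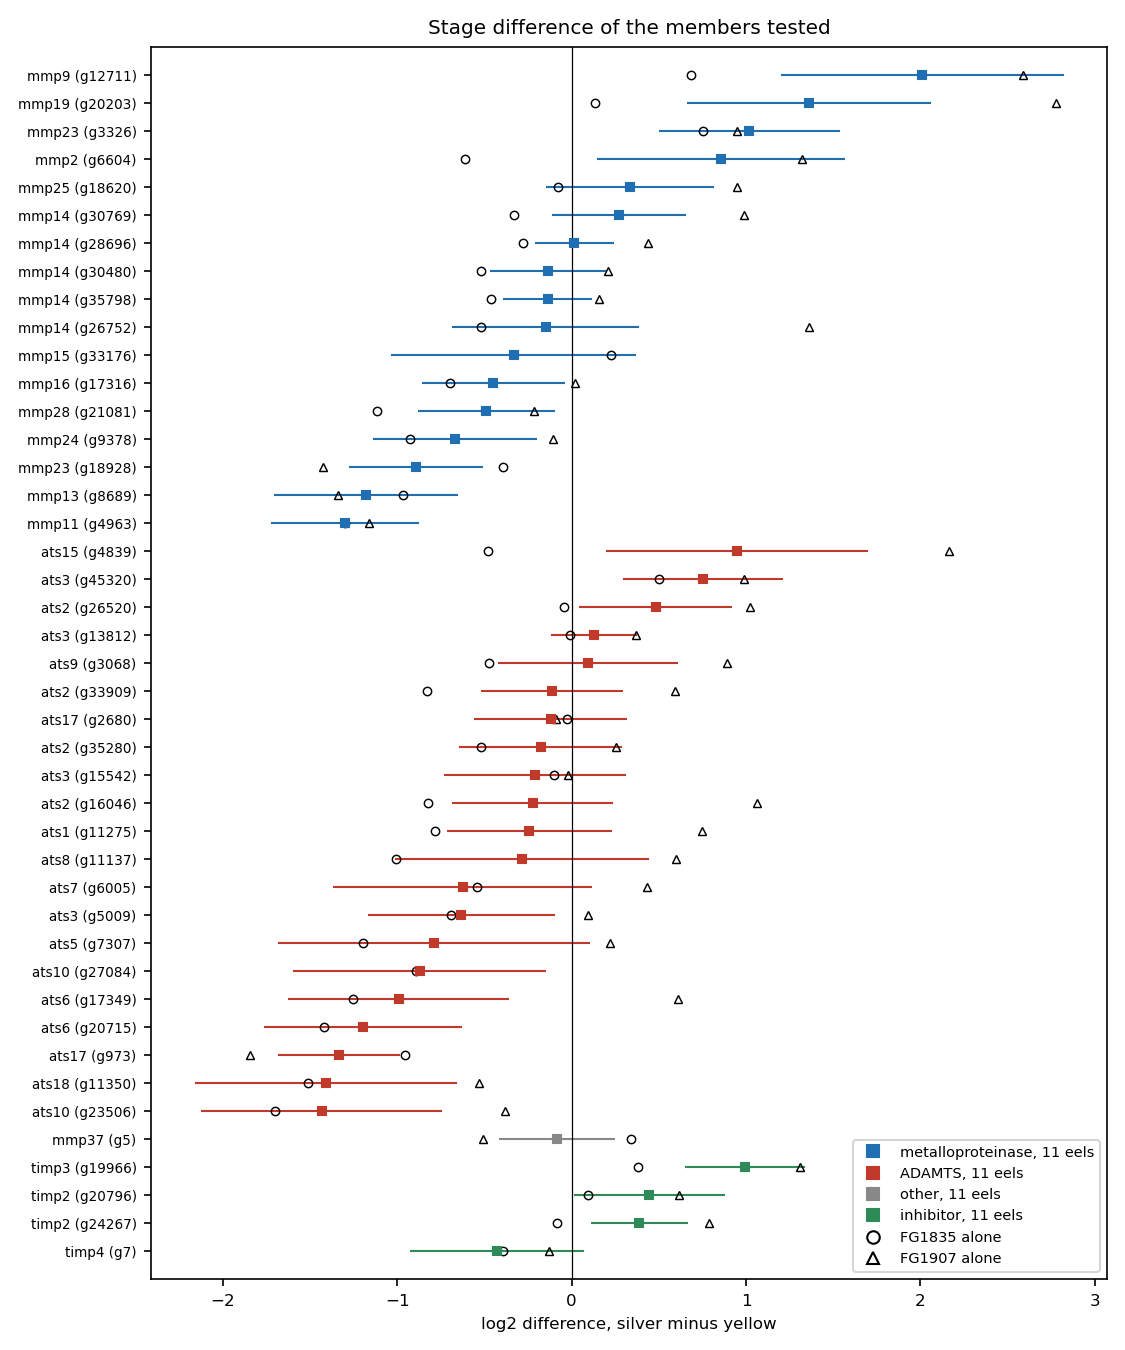
Log2 difference of silver minus yellow eels (horizontal axis) of the 43 members tested, squares for all 11 eels with the standard error as bar, circles for set FG1835 alone and triangles for set FG1907 alone. A missing circle or triangle means that the transcript did not pass the filter in that set. Most proteases have the circle left of 0, while the triangles lie more often to the right.

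The stage difference was then read within each library set. In FG1835 (3 yellow against 3 silver eels) 36 of 41 proteases were lower in silver eels, with medians of -0.52 for the metalloproteinases and -0.80 for the ADAMTS proteases, where 49.8% of all transcripts were lower. In the same eels the summed fibroblast markers were 30588, 28618 and 26415 in yellow eels 1 to 3. In silver eels 1 to 3 they were 25584, 15087 and 18416, all below the yellow eels. The largest of these markers were transcripts of co1a1 and co1a2, which are also among the substrates. Pgfra (g9965) was 210, 211 and 286 in these yellow and 149, 119 and 91.9 in these silver eels. Lum (g17120) overlapped, with 456, 511 and 839 against 899, 478 and 399. The part of these markers in the result was not tested. At an unadjusted p under 0.05 there were 11 members (background 7.3%), timp3 as higher and 10 proteases as lower (background 3.91%), and 0 passed the adjusted p (0.0% of the background). The 10 were ats17 (g973), ats18 (g11350), ats8 (g11137), ats10 (g23506), ats6 (g20715), mmp2 (g6604), mmp14 (g26752), mmp14 (g30480), mmp11 (g4963) and mmp28 (g21081). All 3 silver eels of this set were below all 3 yellow eels for 11 of the 38 proteases tested in all eels (background 6.21%). All 3 were above them for timp3 and mmp37 (background 6.96%).

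In FG1907 (2 yellow against 3 silver eels) 14 of 41 proteases were lower and 27 higher, with medians of 0.21 and 0.40, and the inhibitors had 0.70. Of all transcripts 53.8% were higher there, with a median of 0.043. At an unadjusted p under 0.05 there were 4 members (background 2.78%), of which 2 were lower (background 1.26%). Without silver eel 5, 16 proteases were lower and 20 higher, with medians of 0.03 and 0.21, and 0.31 for the inhibitors, where 50.5% of all transcripts were higher. Then 7 members were under an unadjusted p of 0.05 (background 3.98%), of which 4 were lower (background 2.22%), and none passed the adjusted p in either fit (0.0% of the background). Tested as an interaction in edgeR, the stage difference in FG1907 was larger than in FG1835 by a median of 0.73 (metalloproteinases) and 1.06 (ADAMTS proteases) on the log2 scale. For all transcripts this median was 0.057. None of the 43 members passed the adjusted p (0.0% of the background), 4 were under an unadjusted p of 0.05 (background 4.94%) and DESeq2 called 0 members and 23 transcripts. Without silver eel 5 the medians of the metalloproteinases and ADAMTS proteases were 0.44 and 0.76 (all transcripts 0.005). Then 1 member was under an unadjusted p of 0.05 (background 4.7%). A stage difference that differed between the sets was thus not shown for any single member.

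The substrates of these proteases had like signs. Within FG1835 55 of 63 substrate transcripts were lower in silver eels (median -0.64), and within FG1907 50 of 63 were higher (median 0.57, and 0.19 without silver eel 5). Of all transcripts 49.8% were lower in FG1835 and 53.8% were higher in FG1907.

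Proteases were then compared with inhibitors by their summed relative expression values, as a description without a test. The metalloproteinases summed to 6998, 6008, 6926, 5181 and 6493 in yellow eels 1 to 5, and to 4239.7, 4917 and 18643 as the lowest, median and highest silver values. The highest was silver eel 5, and without mmp2 its sum of 5795 was close to the 5556 of the next highest, yellow eel 3. The ADAMTS proteases summed to 7834, 10091, 5736, 4036 and 3319 in yellow eels, and to 3652, 4692 and 6417 in silver eels. The yellow eels of FG1835 (the first 3) had sums of 5736 to 10091, and of the yellow eels of FG1907 eel 4 was in the range of the silver eels and eel 5 below it.

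The inhibitors summed to 8948, 9293, 8669.7, 12408 and 7278 in yellow eels. The lowest, median and highest silver values were 9544, 12824 and 24252. All silver eels were above the 4 lower yellow eels, and 3 silver eels (all of FG1907) were above yellow eel 4. Silver mean over yellow mean was 1.56 for the inhibitors, 1.15 for the metalloproteinases and 0.76 for the ADAMTS proteases. Without silver eel 5 it was 1.35 for the inhibitors and 0.79 for the metalloproteinases. The direction of the latter thus rested on this eel. These ratios take both library sets together. In FG1835 the ADAMTS sums were 4932, 6417 and 3668 in silver eels, against 5736 to 10091 in yellow eels. In FG1907 they were 3652, 5079 and 4453 in silver eels, and 4036 and 3319 in yellow eels. The inhibitors summed to 9544, 9775 and 9914 in silver eels 1 to 3, and to 18063, 24252 and 15733 in silver eels 4 to 6.

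**Figure D3:**
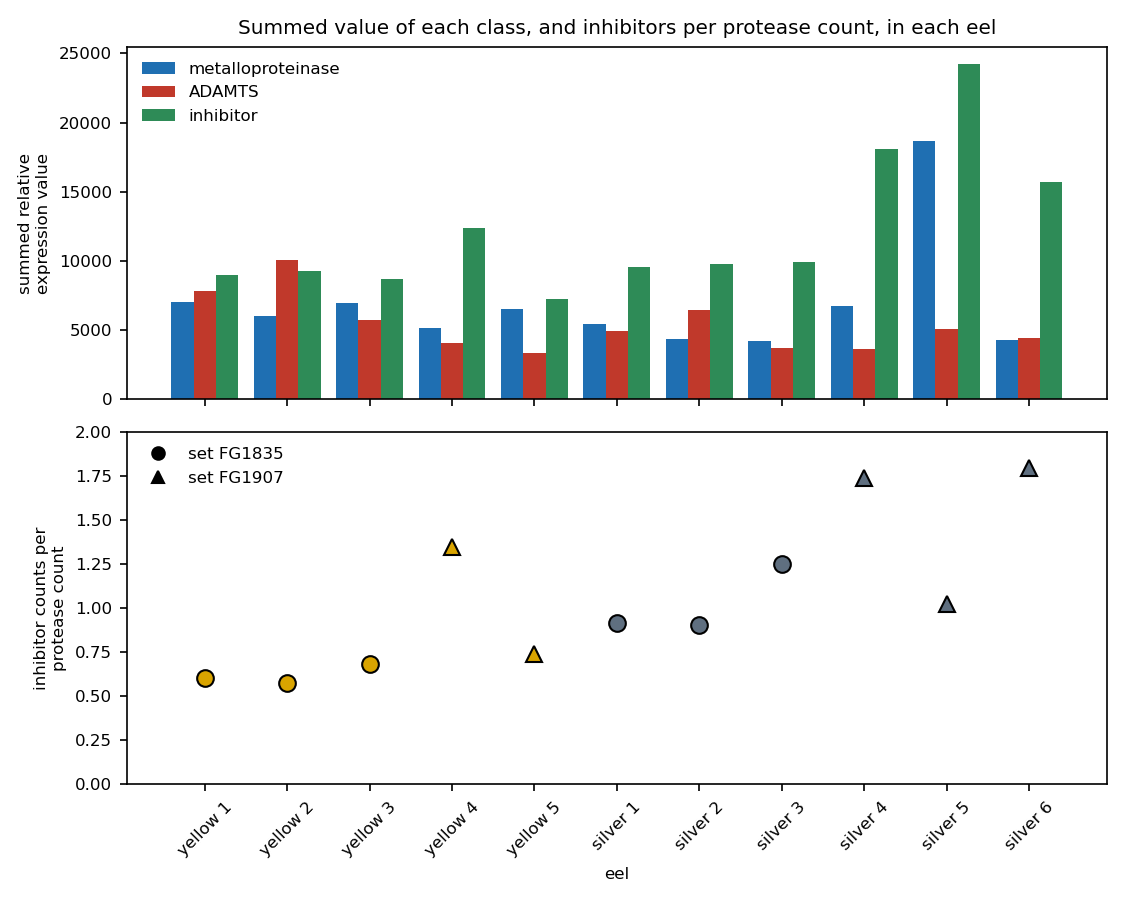
Upper panel, summed relative expression value of metalloproteinases, ADAMTS proteases and inhibitors in each eel. Lower panel, inhibitor counts per protease count (circles FG1835, triangles FG1907, yellow and grey for yellow and silver eels). In FG1835 the 3 silver eels lie between 0.905 and 1.25, above the 3 yellow eels at 0.577 to 0.685. In FG1907 the stages overlap, with yellow eel 4 at 1.35 above silver eel 5 at 1.02.

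Inhibitor counts per protease count were 0.603, 0.577, 0.685, 1.35 and 0.742 in yellow eels 1 to 5. In silver eels 1 to 6 they were 0.919, 0.905, 1.25, 1.74, 1.02 and 1.80. All 6 silver eels were above 4 of the 5 yellow eels and only 2 were above yellow eel 4, so the stages overlapped. The mean was 0.791 ± 0.317 (SD, n = 5) in yellow and 1.27 ± 0.405 (SD, n = 6) in silver eels. With mmp2 left out silver eel 5 moved from 1.02 to 2.23, and the means were 0.957 and 1.63. With timp3 left out the means were 0.468 and 0.607, and 2 silver eels were above yellow eel 4. Per metalloproteinase count alone the means were 1.52 in yellow and 2.33 in silver eels, and per ADAMTS count alone 1.77 and 3.24. The ratio depends on the unscaled counts of each gene and is read between eels only. By library set the mean inhibitor count per protease count over both stages was 0.824 ± 0.257 in FG1835 and 1.33 ± 0.455 in FG1907 (SD). The part of the library set in the stage difference of this ratio was not tested.

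Silver eel 5 stood apart within the members. It had the highest value of all eels in 11 of the 28 members above 50, where the next eels had 4. It had the lowest value in 8, but silver eel 6 had the lowest in 10. Of the 15070 transcripts above 50 silver eel 5 was the highest in 11.4% and the lowest in 16.2%. Above all other eels were 5 of 12 metalloproteinases, 3 of 11 ADAMTS proteases and 3 of 4 inhibitors. Below all other eels were 3 of 12, 5 of 11 and 0 of 4.

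**Figure D4:**
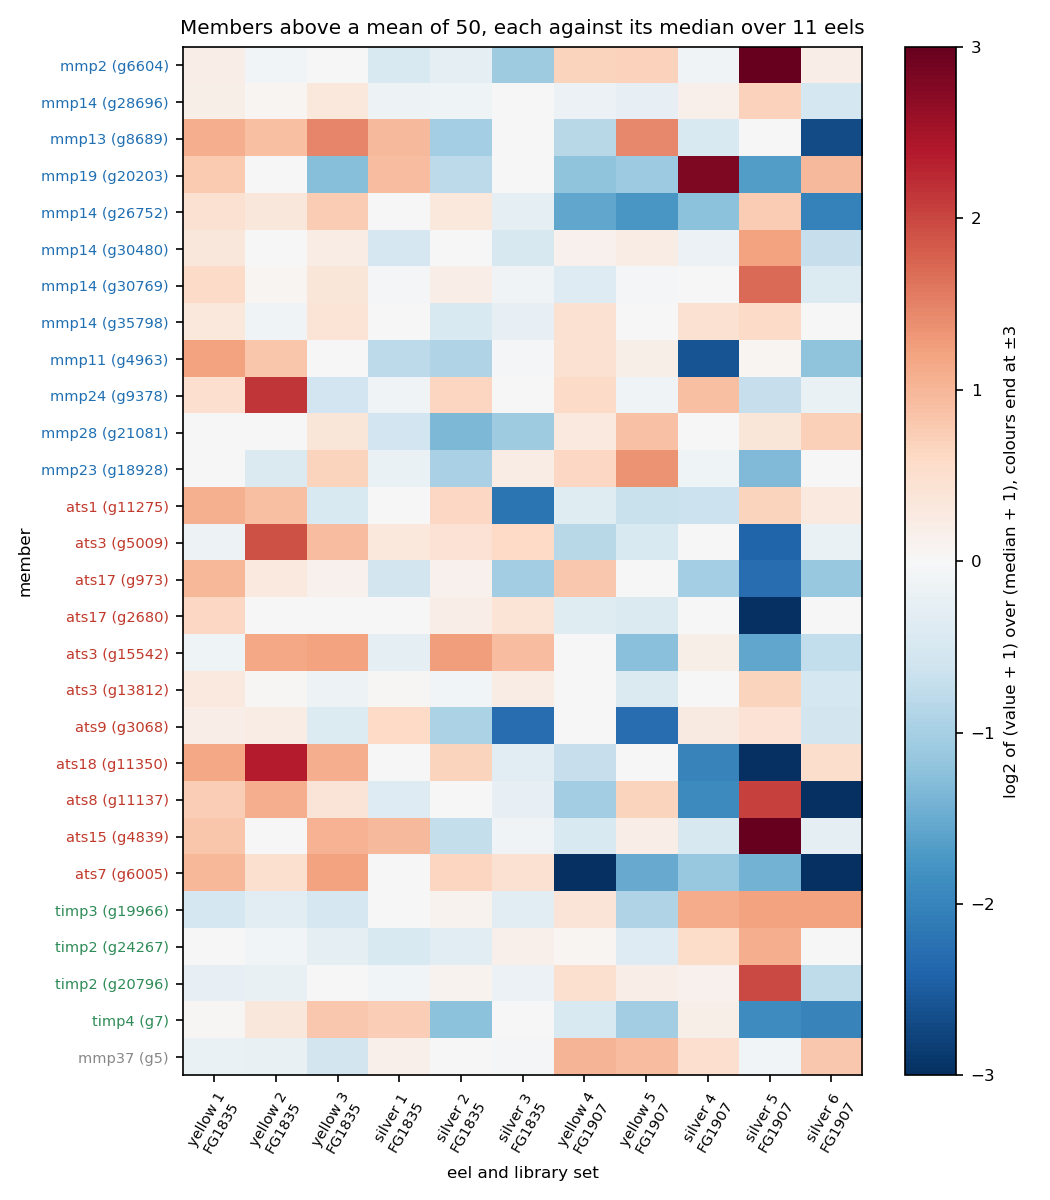
Log2 of (value + 1) over (median of the row + 1) (colour scale, red higher and blue lower, colours end at ±3) for the 28 members above 50 in 11 eels, ordered by library set and stage. In the column of silver eel 5 mmp2, ats15 and timp2 (g20796) are high, and both ats17, ats18 and ats3 (g5009) are low.

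Mmp2 (g6604), gelatinase A, cuts type IV collagen of basement membranes and is activated by mmp14. It was 12848 in silver eel 5 and 651 to 2198 in the other 10 eels. The yellow eels had 1566, 1299.8, 1370.0, 2165 and 2198, and the silver eels had a lowest value of 651 and a median of 1209. The log2 difference of 0.86 (standard error 0.71) became -0.62 without silver eel 5, with an unadjusted p of 0.032, and DESeq2 gave no adjusted p for it. Its activator was high in the same eel. The 5 mmp14 transcripts above 50 summed to 4435 in silver eel 5, and to 1545 to 3320 in the other eels.

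Further members that were high in silver eel 5 were ats15 (g4839), a versican-cutting protease, with 366 against 20.6 to 71.8 in the others, and ats8 (g11137), known to restrain capillary growth, with 268 against 5.87 to 138. Members that were low in it were ats17 (g2680), with 44.9 against 292 to 606, and ats18 (g11350), with 1.04 against 18.5 to 397. Ats3 (g5009), which processes procollagen and the growth factor of lymphatic vessels, had 188 against 556 to 3768.

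Cell type markers and other genes of the pathway also differed in this eel. In silver eel 5 the fibroblast markers had 4 of 9 transcripts above all other eels and 0 below, with lum (g17120), lumican, a proteoglycan of collagen fibrils, at 8024 against 399 to 899 in the other eels. Endothelial markers had 0 of 14 above and 8 below, with a median log2 ratio to the other eels of -1.18. For leukocyte markers it was 2 of 11 above and 0 below, and for the substrates 15 of 47 above and 4 below. Other inhibitors and clearance receptors had 7 of 12 above and 0 below, and activators and inducers 0 of 5 above and 3 below. Sheddases and related metzincins had 2 of 13 above and 2 below, and ADAMTS-like proteins 0 of 3 above and 2 below. Of all transcripts above 50, 11.4% were above and 16.2% below. All fibroblast markers but pgfra are also among the substrates, so the counts of fibroblast markers and substrates share transcripts. Pgfra (g9965) was 188 in silver eel 5 and 62.3 to 286 in the other eels. The part of these markers and pathway genes in the values of the members was not tested.

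The library sets were compared last, with stage as a further term, since this comparison bears on the results above. Of the 43 members 11 passed an adjusted p of 0.05 in edgeR, while 38.6% of all transcripts did. Of these, 5 members were higher in FG1907 (background 19.5%) and 6 were lower (background 19.0%). The share of members called did not exceed that of all transcripts. DESeq2 called 17 members (background 33.6% of 33097 transcripts). It was run without the filter on low counts, so these are not 17 of the 43. Without silver eel 5 edgeR called 13 of the 43 (background 47.9%).

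**Figure D5:**
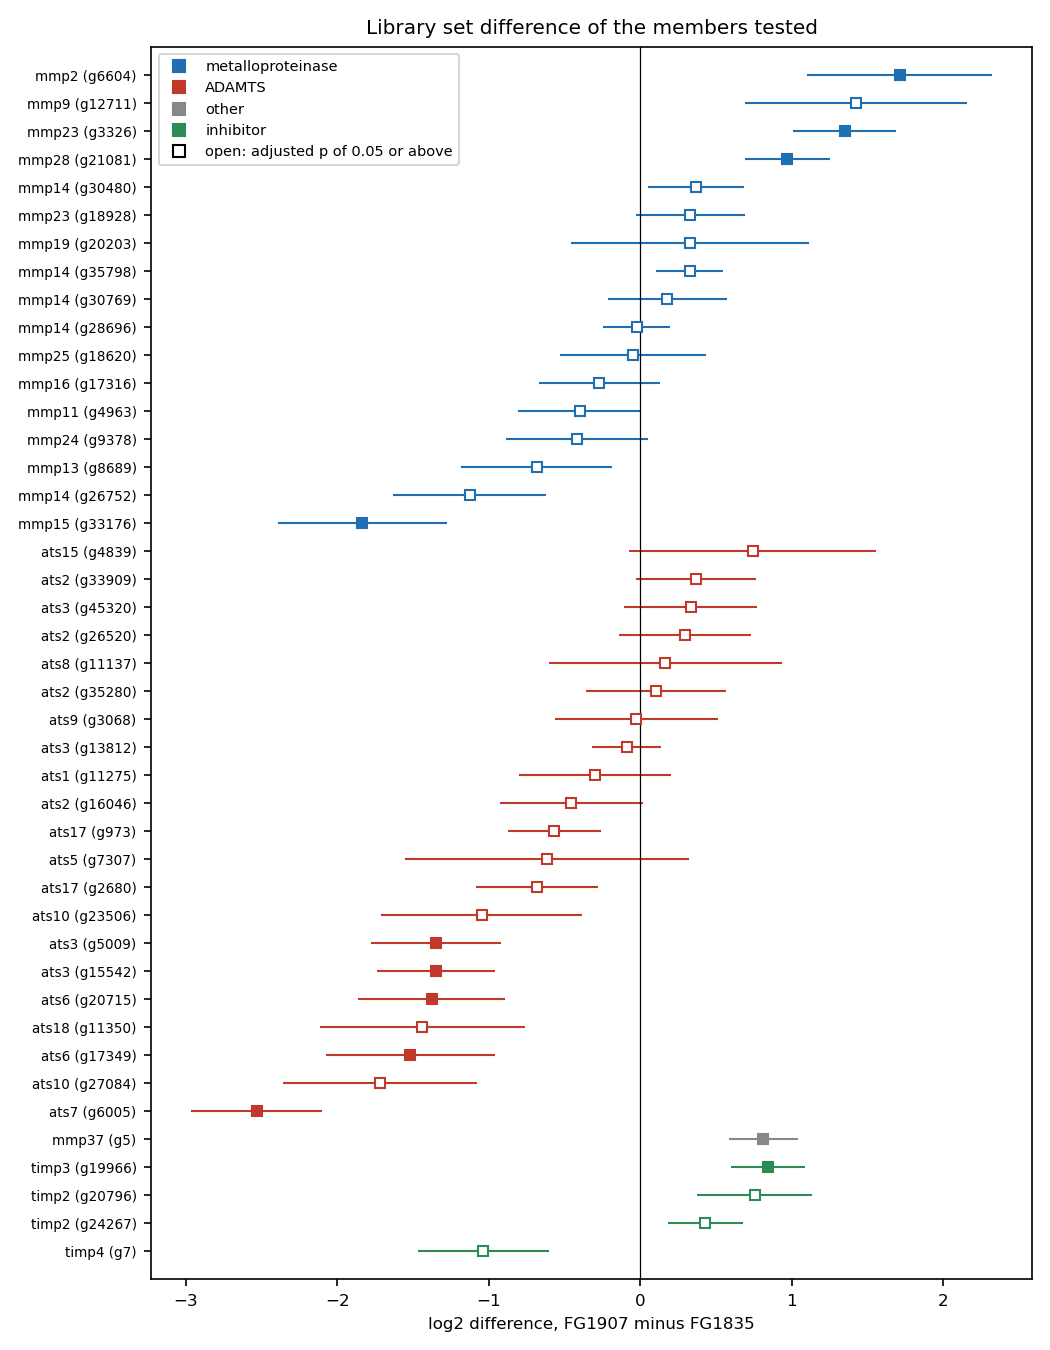
Log2 difference of FG1907 minus FG1835 (horizontal axis) of the 43 members tested, with the standard error as bar, filled squares for an adjusted p under 0.05. The 5 of 21 ADAMTS proteases called (23.8%) are all left of 0, where 19.0% of all transcripts were called lower. Timp3, mmp2, mmp23 (g3326), mmp28 and mmp37 are called to the right of 0.

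The 5 of 21 ADAMTS proteases that passed (23.8%) were all lower in FG1907. Of all transcripts 38.6% passed and 19.0% passed as lower. Ats7 (g6005), a protease that cuts the cartilage oligomeric matrix protein and is known from vascular smooth muscle, had 52.0 to 121 in the 6 eels of FG1835 and 5.65, 17.6, 23.2, 18.8 and 4.70 in yellow eels 4 and 5 and silver eels 4 to 6. The sets did not overlap for this member alone (11.1% of the background were below). Its log2 difference was -2.53 with a standard error of 0.43 (edgeR, adjusted p = 0.0011). Both ats3 (g5009) and ats3 (g15542) fell by 1.35 on the log2 scale (standard errors 0.43 and 0.39, adjusted p of 0.027 and 0.017). Ats6 (g17349) fell by 1.52 and ats6 (g20715) by 1.38, with adjusted p of 0.047 and 0.041, and when each eel was left out in turn the call held in 2 and 4 of 11 fits. Of the 17 metalloproteinases tested 8 had lower values, and only mmp15 (g33176) was called lower (-1.84, adjusted p = 0.022 by edgeR). It is a membrane-type protease with a mean of 13.7.

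Of the members that were higher in FG1907, timp3 had a log2 difference of 0.84 (standard error 0.25, adjusted p = 0.018 by edgeR). Mmp28 (g21081), epilysin, had 0.97 (adjusted p = 0.017), mmp23 (g3326) had 1.35 (adjusted p = 0.0089) and mmp37 (g5) had 0.81 (adjusted p = 0.014). Mmp2 (g6604) had 1.71 (adjusted p = 0.042), which was 0.62 (adjusted p = 0.0086) without silver eel 5. Timp4 had -1.04 (adjusted p = 0.074), and both timp2 transcripts were not called. The class medians were 0.18 for metalloproteinases, -0.57 for ADAMTS proteases and 0.59 for inhibitors, beside 0.03 for all transcripts.

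Within the stages this set difference was uneven. Among the yellow eels 7 of 50 members passed the adjusted p (background 30.2%), and among the silver eels 0 of 39 did (background 1.82%). In the silver eels 9 of 39 were under an unadjusted p of 0.05 (background 26.1%). The fit of the silver eels held silver eel 5 and was not run without it. The ADAMTS median was -1.15 in the yellow eels and 0.20 in the silver eels, and that of the inhibitors was 0.16 and 0.88. Of the other genes of the pathway, 7 of 29 other inhibitors, 3 of 12 activators, 7 of 28 sheddases, 0 of 3 ADAMTS-like proteins and 27 of 62 substrates passed the adjusted p between the sets, where 38.6% of all transcripts passed.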

How the data were processed

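Raw counts per predicted transcript were deposited by the authors, who used TopHat 2.0.13 for alignment to a draft genome of the eel, removed secondary alignments with SAMtools 1.2 and counted with HTSeq 0.6.1p1. The base means in the table are a signal that the authors made by dividing counts by size factors; they were used as a check only, and the authors' fold changes and p-values were not used. By the methods some libraries were read in pairs and some as single reads, and which is not given in the sources used here. One column, FG1935_03, was read as the title FG1835_03. The labels' protocol speaks of gas gland tissue, the tissue label of rete mirabile.

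Counts of the 23981 transcripts that passed filterByExpr were TMM-scaled and fitted with edgeR 4.0.16 in R 4.3.3 (~ stage; ~ stage + library set for the sets; an interaction), with Benjamini-Hochberg adjustment over all of them and a threshold of 0.05. The standard error is the absolute log2 difference over the root of F. DESeq2 1.42.0 and limma 3.58.1 were alternatives. The edgeR fits were run on simulated counts with known changes. For the stage test these held no difference between the library sets. They therefore do not show how many stage differences would be missed in these eels.

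Members, lists and alternatives were chosen with earlier results of these data known. Named are every inhibitor, every member above a mean of 50, every member with an unadjusted stage p under 0.05 and every member called between the sets; the rest enter the counts. The letters ats also occur in 4 transcripts named lats, which were left out. Names are those of the table, and no sequences were used. Silver eel 5 was left out together with the set term, within FG1907 and in the interaction after seeing the data, as were DESeq2 with the set term and DESeq2 for the interaction.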

Additional observations from a re-analysis of the deposited data

Results flagged for a closer look

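In groups of 5 or 6 eels, values far from the other eels of their stage were found in 13 of 76 groups examined. For independent groups chance gives about 1 in 20, or 3.8. These groups share the same eels, and the sum of the metalloproteinases contains mmp2, so 13 cannot be weighed against 3.8. Of the 13, 9 were silver eel 5. It was high in mmp2 (12848, others 651 to 1582), timp2 (g20796) (4019, others 601 to 1115), mmp14 (g30480) (493.4, others 130.4 to 212) and mmp14 (g30769) (460.0, others 107 to 163). It was also high in ats15 (g4839) (366, others 20.6 to 69.0), ats8 (g11137) (268, others 5.87 to 63.9), mmp9 (g12711) (211, others 9.75 to 63.7) and the sum of the metalloproteinases (18643, others 4239.7 to 6715). Low was ats17 (g2680) (44.9, others 396 to 524).

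The 4 further values lay apart from their stage. Silver eel 4 had 2131 for mmp19 (g20203), the other silver eels 94.9 to 604. Yellow eel 1 had 80.5 for ats10 (g23506), the other yellow eels 11.1 to 26.4. Yellow eel 2 had 212 for mmp24 (g9378), a membrane-type protease, the other yellow eels 31.8 to 71.2. Yellow eel 4 had 1.35 inhibitor counts per protease count, the other yellow eels 0.577 to 0.742. No cause was tested for any of them.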

How the results depend on the processing

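Between the stages, 0 members were called under every alternative except DESeq2 with the set term, which called 1 (ats17, g973). The number of transcripts called was 25 with DESeq2, 55 with DESeq2 and the set term, 2 with the set term without silver eel 5, and 0 to 1 when single eels were left out (1 without silver eel 6). The median of the metalloproteinases was -0.52 in FG1835 and 0.21 in FG1907, and that of the ADAMTS proteases was -0.80 and 0.40. The inhibitor median was -0.034 to 0.53 when single eels were left out (lowest without silver eel 5) and -0.028 with the set term without silver eel 5. Log2 differences between the stages changed sign for 22 of the 32 members named in that comparison, none of them called. When single eels were left out, the range spanned 0 for mmp2 (-0.62 to 1.07), timp2 (g20796) (-0.21 to 0.61), ats15 (g4839) (-0.44 to 1.16), ats1 (-0.41 to 0.044), ats17 (g2680) (-0.26 to 0.11), ats3 (g15542) (-0.52 to 0.070), ats3 (g13812) (-0.024 to 0.23), ats9 (g3068) (-0.16 to 0.30), mmp14 (g28696) (-0.16 to 0.11), mmp14 (g26752) (-0.43 to 0.13), mmp14 (g30769) (-0.22 to 0.40) and mmp37 (-0.25 to 0.14). With the set term and without silver eel 5 the sign turned for mmp2 (-0.62), ats15 (-0.42), timp2 (g20796) (-0.19), ats17 (g2680) (0.14), ats3 (g15542) (0.049), ats3 (g13812) (-0.025), ats9 (-0.029), mmp14 (g28696) (-0.15), mmp14 (g30769) (-0.21) and mmp37 (0.069), and with the set term for mmp14 (g26752) (0.25, DESeq2 0.26). In FG1835 it turned for mmp2 (-0.61), ats15 (-0.48), ats9 (-0.48), timp2 (g24267) (-0.085), ats3 (g13812) (-0.0065), mmp14 (g28696) (-0.28), mmp14 (g30769) (-0.33) and mmp37 (0.34). In FG1907 it turned for ats1 (0.75), ats3 (g5009) (0.092), ats8 (0.60), ats7 (0.43), mmp14 (g26752) (1.36), mmp14 (g30480) (0.21) and mmp14 (g35798) (0.16). In FG1907 without silver eel 5 it turned for mmp2 (-0.63), timp2 (g20796) (-0.60), timp4 (0.19), ats18 (g11350) (0.030), ats15 (-0.33), ats1 (0.39), ats3 (g5009) (0.52), ats17 (g2680) (0.40), ats3 (g15542) (0.29), ats3 (g13812) (-0.046), ats7 (0.23), mmp14 (g26752) (0.066), mmp14 (g30769) (-0.0004) and mmp24 (0.17). With voom it turned for mmp2 (-0.039), ats9 (-0.0031), mmp14 (g28696) (-0.019) and mmp37 (0.032), and mmp14 (g28696) was -0.0072 with upper quartile scaling and -0.018 with total counts. With rows of one name summed, mmp23 was -0.28, ats3 -0.50 and mmp14 -0.035. DESeq2 called 23 transcripts for the interaction.

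Between the sets, 6 members were called with the limit of 50 as filter, 17 with DESeq2 and 7 with rows of one name summed. In yellow eels 7 of 50 were called, and in silver eels 0 of 39. When single eels were left out 6 to 13 were called (6 without yellow eel 5, 7 without yellow eel 4). Of all transcripts 33.6% were called with DESeq2, 30.2% in yellow eels, 1.82% in silver eels and 47.9% without silver eel 5. As this share changed between fits, the counts are not read as a result about the members. Transcripts called were 5565 with rows summed and 427 in silver eels. The metalloproteinase median was -0.22 with rows summed and -0.42 in yellow eels. The ADAMTS median was -0.15 without a filter, -0.12 with DESeq2, -1.15 in yellow and 0.20 in silver eels, and -0.84 to -0.16 when single eels were left out (-0.16 without yellow eel 5). Timp2 (g24267) was -0.032 in yellow eels. Of the 11 members called, ats7, mmp28, mmp23 (g3326) and mmp37 kept the call whichever single eel was left out, while ats6 (g17349) kept it in 2 of 11 and ats6 (g20715) in 4 of 11. Where a value changed, the cause was not tested. No paired analysis was possible because the replicate numbers were given in accession order and pair no eels. Low counts limit the values of members with a mean under 50.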
